A study of Arabis alpina with 18 samples.

Results

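Membrane transporter genes were described in Arabis alpina, an alpine perennial of the Arabidopsis family. They were chosen by their names: genes in the authors' 6 deposited lists of genes that differed between the genotypes were taken where the name or description held the word transporter, antiporter or permease and not receptor, and where the gene had an Arabidopsis locus and 1 entry in the count table. The word aquaporin was also searched and matched 0 genes. Of the genes that matched the words, 2 were left out by their locus. Of 34220 genes in the count table, 1399 carried a name through these lists, and 67 of those were members. No statistic was read to select them, but the lists are themselves results of the genotype comparison, so the members were selected on their eop055 against pep1-1 difference, and that difference is described below without a test. The authors' lists held genes from a log2 difference of 1 upwards and with an adjusted p of up to 0.05. In the authors' deposited table for 3-week apices ALS3 was the member just inside the limit of size, at a log2 difference of 1.00, and LHT7 the member nearest the limit on p, at 0.0482. Genes just outside the limits carry no names and were not analysed here.

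Messenger RNA was sequenced in 18 libraries, 3 from each of 6 groups, all from long-day plants of the Pajares accession. The groups were the 5th and 6th leaf at 5 weeks of the eop055 mutant and of the pep1-1 mutant, dissected shoot apices at 5 weeks of eop055 and of pep1-1, and dissected shoot apices at 3 weeks of eop055 and of pep1-1. PEP1 is the counterpart of FLC, a gene that represses flowering in Arabidopsis, and the study addressed how TOE2 regulates flowering. The labels give neither the lesion of eop055 nor whether eop055 also carries pep1-1, and no wild type was analysed here.

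Transporters move nutrients, metabolites, hormones and ions across the membranes of the cell and its organelles. In shoots, sugar and amino acid carriers load and unload the phloem, nitrate, sulfate and phosphate carriers pass on ions delivered by the roots, and growing apices import what mature leaves export. ABC transporters use ATP to export or import hormones, waxes and other compounds, and MATE carriers expel small organic molecules in exchange for cations. Roles given below are those known from Arabidopsis.

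The members fell into classes by name. There were 16 for amino acids, purines and organic acids, 11 for nitrate, ammonium and peptides, 8 for sugars, 7 ABC transporters, 6 for phosphate and sulfate, 5 MATE efflux carriers, 5 for potassium, sodium, protons and calcium, 3 for metals and 4 organelle and other carriers. The remaining 2 are not carriers by their descriptions: HB1 is a hemoglobin and SIP4 a protein kinase. Both were kept because the rule took them. PATL2, counted among the other carriers, is a patellin, a lipid-binding protein. Of the 67, 63 stood in 1 of the authors' lists and 4 in more than one.

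Libraries held 7987096 to 14132723 gene counts. Levels are given in CPM, counts scaled to a common library total; they are not divided by gene length and are compared only within a gene. Of the members, 66 had enough counts to be tested and 58 reached a mean of 5 CPM in at least 1 group. NRT2.5, a nitrate carrier, was too low to test: its highest library, in eop055 leaves, had 3.05 CPM. The 3 eop055 leaf libraries differed more from each other than those of any other group, with a chi-square per gene of 9.21 to 26.2 between pairs, against 1.51 to 5.96 in the other groups. The lowest value belonged to pep1-1 leaf replicates 2 and 3. Whether replicates came from separate plants is not stated in the labels, so p-values below measure the spread between libraries only, which may be technical. The meristem and leaf photosynthesis markers chosen to check the tissue labels carried 0 names in the lists, so that check was not made. Markers carry names only through lists of genotype differences, so such a difference in a named marker partly repeats how it was named. Floral organ genes were 8 of 8 named. Their summed level was 25.5 to 56.7 CPM in eop055 and 2.86 to 4.11 CPM in pep1-1 apices at 5 weeks, 5.35 to 6.26 CPM in eop055 and 4.56 to 6.29 CPM in pep1-1 apices at 3 weeks, and at most 2.41 CPM in leaves. In apices other than eop055 at 5 weeks most of the sum was 1 gene, CRC. It had 2.28 to 3.59 CPM in pep1-1 apices at 5 weeks. At 3 weeks it had 4.25 to 5.11 CPM in eop055 and 3.64 to 6.01 CPM in pep1-1 apices.

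**Figure D1:**
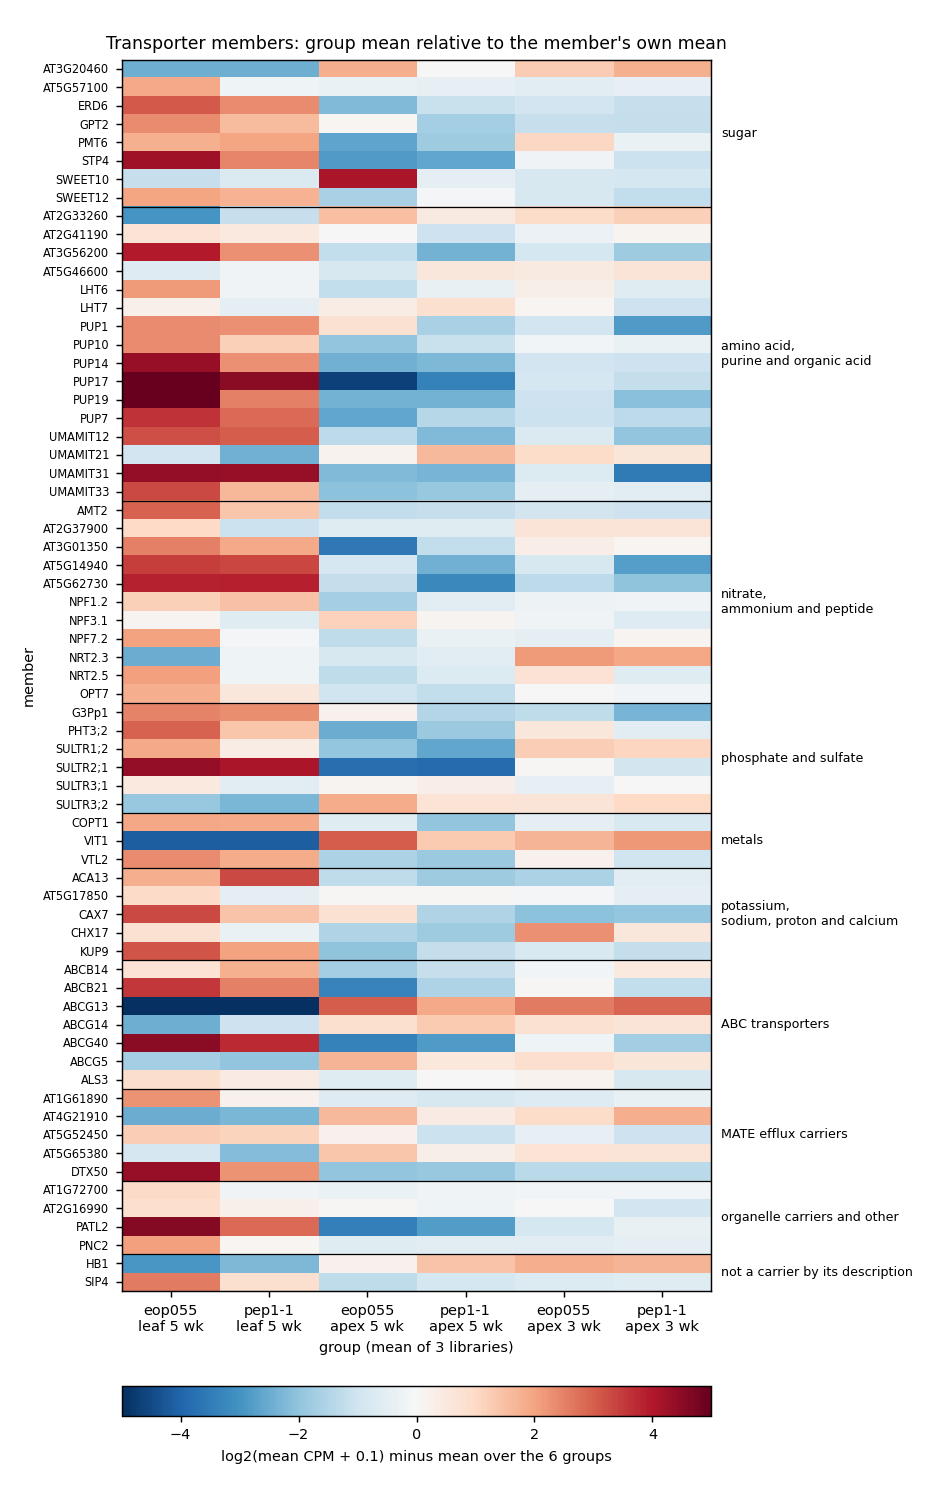
Mean level of each of the 67 members (down the page, by class) in each group (across), as log2(mean CPM + 0.1) minus the member's mean over the 6 groups; red is above and blue below that mean, and colours saturate at 5. Most members are red in the leaf columns, and 45 of 67 have their highest mean in eop055 leaves.

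The group with the highest mean was eop055 leaves for 45 members and pep1-1 leaves for 5. It was eop055 apices at 5 weeks for 9, pep1-1 apices at 5 weeks for 3, eop055 apices at 3 weeks for 3 and pep1-1 apices at 3 weeks for 2. The authors' longest list was the one for higher genes in eop055 leaves, which supplied 28 members, so this order partly repeats the choice of members.

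The first comparison asked how transporter transcripts differed between older and younger apices, averaged over the 2 genotypes. The authors' lists compare genotypes and not ages, but they were made from the same libraries. At 5 weeks 30 of 66 tested members were lower than at 3 weeks and 11 were higher, by the quasi-likelihood F test of edgeR at a Benjamini-Hochberg adjusted p under 0.05 over 21275 genes. Among all genes tested 25.3% were lower and 24.0% higher at 5 weeks. The members called lower came to 45.5%, against 27.9% of the 1315 other named genes tested, and those called higher to 16.7%, against 14.1%. The median log2 change of the members was -0.55, against -0.19 for the other named genes and 0.01 for all genes. In 17 of 66 members all 6 libraries at 5 weeks lay below all 6 at 3 weeks, where 12.9% of all genes did so. In 0 members did all 6 lie above, where 10.7% of all genes did. The count depends on which list supplied the members. Of the 27 tested members listed higher in eop055 leaves, 22 had a negative and 5 a positive log2 change with age, with a median of -0.88. Of the 19 listed higher in eop055 apices at 5 weeks, 8 were negative and 11 positive, with a median of 0.25. Of the 8 listed lower there, 6 were negative and 2 positive, with a median of -0.75. The 12 listed higher in eop055 apices at 3 weeks had 7 negative and 5 positive values, with a median of -0.23. The 4 listed lower in eop055 leaves had 3 negative and 1 positive, with a median of -1.31. The share of counts that lay in no annotated feature also separated the ages, at 13.7 to 16.6% of each library at 5 weeks and 10.6 to 11.8% at 3 weeks, and its part in these changes was not tested. In whole apices fewer cells of a type and less RNA per cell cannot be told apart.

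The sulfate carrier SULTR2;1, a low-affinity transporter of the vascular tissue, fell most among members with at least 5 CPM and no overlap. SULTR2;1 had 0.343, 0.795 and 0.197 CPM in eop055 and 0.890, 0 and 0.350 CPM in pep1-1 apices at 5 weeks, against 8.03, 7.68 and 7.51 CPM in eop055 and 5.92, 2.83 and 2.78 CPM in pep1-1 apices at 3 weeks. Every 5-week library was below every 3-week library, and at 3 weeks eop055 lay above pep1-1. The log2 change was -3.50 (SE 0.36, adjusted p = 2.47e-06, edgeR), and -4.16 without pep1-1 replicate 1 of the 5-week apices. SULTR2;1 was listed higher in eop055 apices at 3 weeks, which are part of the 3-week side of this test. The fall and p-value of SULTR2;1 therefore partly repeat how it was chosen.

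PUP17, a purine permease, had 0.275, 0.306 and 0.657 CPM in eop055 and 1.59, 1.39 and 0.525 CPM in pep1-1 apices at 5 weeks, against 5.31, 10.1 and 5.79 CPM in eop055 and 4.69, 5.18 and 6.91 CPM in pep1-1 apices at 3 weeks. The ages did not overlap, while the genotypes overlapped at each age. PUP17 fell by 3.15 on the log2 scale (SE 0.41, adjusted p = 3.64e-05, edgeR).

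NRT2.3, of the high-affinity nitrate transporter family, had 6.04, 7.09 and 2.04 CPM in eop055 and 7.38, 7.22 and 3.76 CPM in pep1-1 apices at 5 weeks, against 34.7, 41.1 and 42.7 CPM in eop055 and 32.0, 39.9 and 31.5 CPM in pep1-1 apices at 3 weeks. Both genotypes were low at 5 weeks and high at 3 weeks, with no overlap. NRT2.3 fell by 2.72 on the log2 scale (SE 0.25, adjusted p = 1.08e-06, edgeR). Its change was -2.96 in eop055 and -2.48 in pep1-1.

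STP4, a plasma membrane importer of hexoses typical of sink tissues, had 2.54, 3.61 and 3.09 CPM in eop055 and 4.01, 5.44 and 1.57 CPM in pep1-1 apices at 5 weeks. At 3 weeks it had 10, 25.1 and 25 CPM in eop055 and 11.2, 9.67 and 11.6 CPM in pep1-1. Again no 5-week library reached a 3-week one, and replicate 1 of eop055 at 3 weeks lay among the pep1-1 libraries. The log2 change of STP4 was -2.13 (SE 0.29, adjusted p = 5.45e-05, edgeR). Leaves had more of it than any apex library, at 342 to 528 CPM in eop055 and 119 to 128 CPM in pep1-1.

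Falls of smaller size were called for ABCB14, a malate importer of guard cells, and UMAMIT33, of the amino acid carrier family UMAMIT. ABCB14 had 2.88, 2.93 and 1.71 CPM in eop055 and 1.72, 5.74 and 3.76 CPM in pep1-1 apices at 5 weeks, against 6.13, 7.81 and 8.52 CPM in eop055 and 7.38, 13.4 and 14.9 CPM in pep1-1 apices at 3 weeks, a log2 change of -1.66 (SE 0.26, adjusted p = 8.19e-05, edgeR). UMAMIT33 had 1.72, 2.26 and 2.04 CPM in eop055 and 2.80, 1.98 and 1.92 CPM in pep1-1 apices at 5 weeks, against 3.68, 8.09 and 6.33 CPM in eop055 and 5.46, 3.59 and 8.57 CPM in pep1-1 apices at 3 weeks, a log2 change of -1.47 (SE 0.30, adjusted p = 0.00121, edgeR). For both genes the ages did not overlap and the genotypes did.

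**Figure D2:**
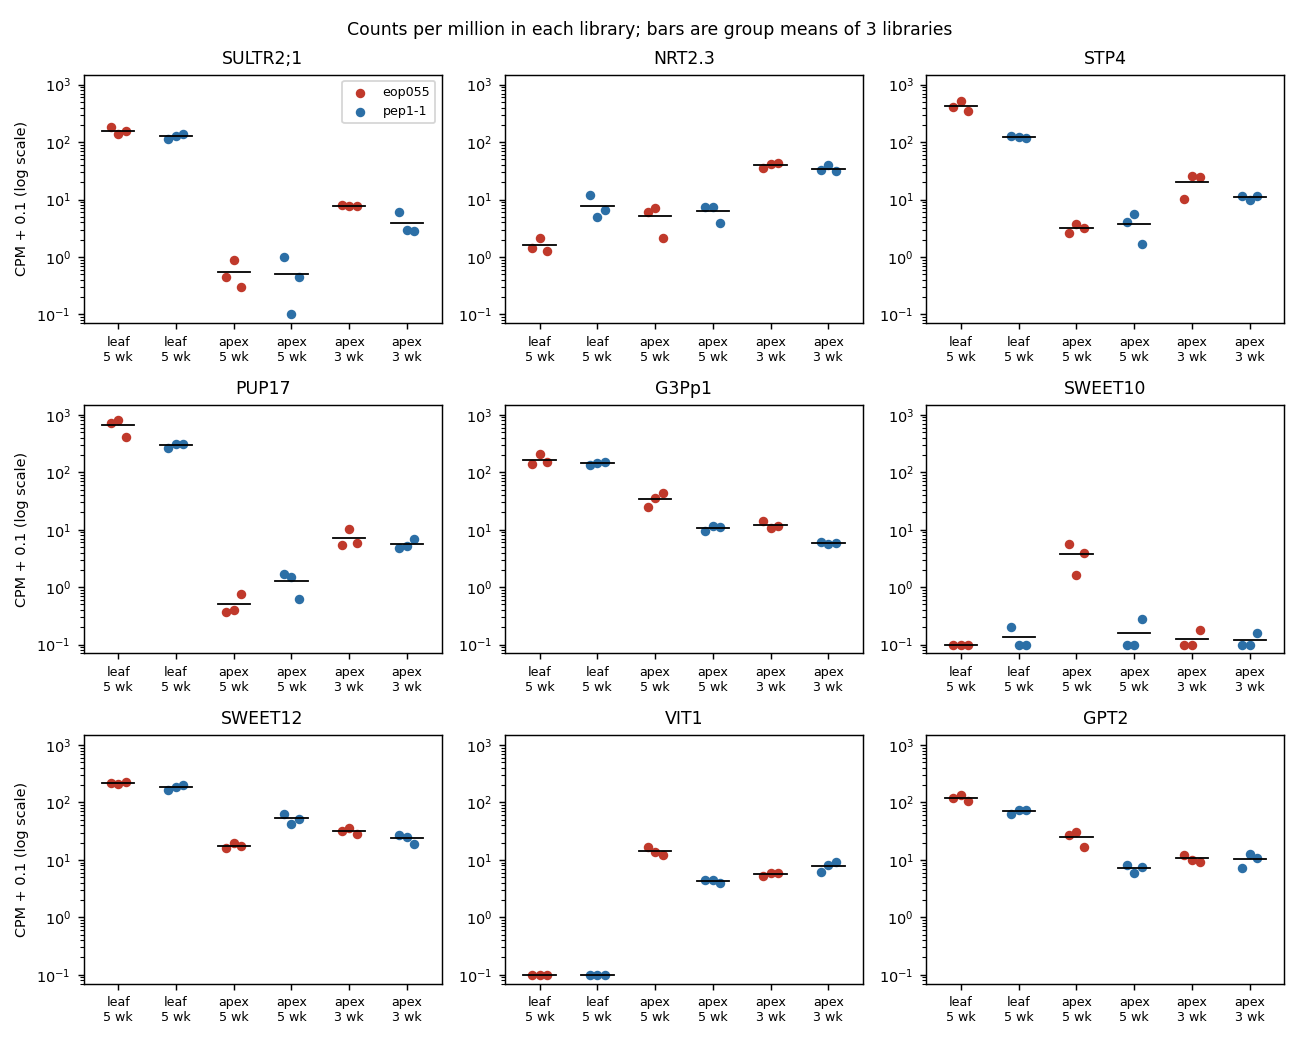
Level of 9 members in each library (points, CPM + 0.1 on a log scale), for leaves and apices with eop055 (red) left of pep1-1 (blue); bars are means of 3 libraries. SULTR2;1, NRT2.3, STP4 and PUP17 are lower in 5-week than in 3-week apices of both genotypes, and SWEET10 exceeds 1 CPM in the 3 eop055 apex libraries at 5 weeks alone.

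No rise with age met the condition of no overlap, so the 11 members called higher are named here after their values were seen. Of these, G3Pp1, NPF3.1, PUP1, SWEET10, CAX7, ABCG5, SULTR3;2 and AT5G65380 were listed higher in eop055 apices at 5 weeks. That group is part of the 5-week side of this test, so their rises and p-values partly repeat how they were chosen. LHT7, ABCG14 and SULTR3;1 were not in that list. G3Pp1, a glycerol-3-phosphate permease known as a gene of phosphate starvation, had 24.6, 35.1 and 42.8 CPM in eop055 and 9.22, 11.4 and 10.9 CPM in pep1-1 apices at 5 weeks, against 14.0, 10.6 and 11.4 CPM in eop055 and 5.92, 5.53 and 5.86 CPM in pep1-1 apices at 3 weeks. Within each genotype the 5-week libraries were the higher, but the pep1-1 libraries at 5 weeks overlapped the eop055 libraries at 3 weeks. G3Pp1 rose by 1.18 on the log2 scale (SE 0.16, adjusted p = 2.65e-05, edgeR).

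NPF3.1, a nitrate and gibberellin carrier, was likewise higher at 5 weeks within each genotype. NPF3.1 had 43.7, 44.9 and 41.1 CPM in eop055 and 22, 23.9 and 17.9 CPM in pep1-1 apices at 5 weeks, against 17.6, 15.8 and 18.1 CPM in eop055 and 10.6, 12.9 and 14.1 CPM in pep1-1 apices at 3 weeks. The log2 change was 1.05 (SE 0.17, adjusted p = 0.000135, edgeR). PUP1, a carrier of adenine and cytokinins, rose by 1.92, and LHT7, of the lysine and histidine transporter family, by 1.14. Neither reached 5 CPM in any apex library. In pep1-1 apices PUP1 had 11 counts at 5 weeks and 3 at 3 weeks. The cytokinin exporter ABCG14 and the sulfate family member SULTR3;1 rose by 0.34 and 0.43. ABCG14 averaged 50.6 CPM at 5 weeks and 49.3 CPM at 3 weeks in eop055, and 71.2 and 45.7 CPM in pep1-1. For LHT7 these means were 2.84 and 2.38 CPM in eop055, and 3.93 and 1.01 CPM in pep1-1. For SULTR3;1 they were 57.3 and 39.4 CPM in eop055, and 65.5 and 52.6 CPM in pep1-1. The difference between the genotypes was not tested.

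SWEET10, a sugar exporter that acts downstream of FT in Arabidopsis, was at or near 0 outside one group. SWEET10 had 5.56, 1.53 and 3.88 CPM in eop055 and 0, 0 and 0.175 CPM in pep1-1 apices at 5 weeks, against 0, 0 and 0.0782 CPM in eop055 and 0, 0 and 0.0617 CPM in pep1-1 apices at 3 weeks. Over the 6 libraries of each age it had 167 counts at 5 weeks and 2 at 3 weeks, a ratio of 85.9 (exact 95% counting interval 23.4 to 715). Its adjusted p was 0.0213 by edgeR, and 0.970 without pep1-1 replicate 3 of the 5-week apices, 1 of the libraries with a count. Replicate 2 was the lowest of the 3 eop055 libraries for SWEET10 and for the summed floral organ genes, while replicate 1 was highest for SWEET10 and replicate 3 for the floral organ genes. The part of floral organs in the level of SWEET10 was not tested.

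Of the other calls of a rise, CAX7, a cation exchanger, rose by 2.1 on the log2 scale (adjusted p = 0.00412, edgeR); without pep1-1 replicate 1 of the 5-week apices the value was 1.46 and the call was lost (adjusted p = 0.169). CAX7 had 64 counts at 5 weeks and 5 at 3 weeks in eop055 apices, with means of 1.38 and 0.114 CPM, and 9 counts at 5 weeks and 6 at 3 weeks in pep1-1 apices, with means of 0.211 and 0.133 CPM. ABCG5, SULTR3;2 and the MATE carrier AT5G65380 averaged to log2 changes of 0.39, 0.44 and 0.16 with opposite signs in the genotypes. Their changes in eop055 were 0.84, 1.21 and 0.69, and in pep1-1 -0.06, -0.33 and -0.37. The calls of SULTR3;2 and AT5G65380 were also lost when single libraries were left out. Of the 11 rises 8 had the same sign in both genotypes, and of the 30 falls 25. A call on the average of the genotypes favours equal signs by itself, and the share over all called genes was not counted. Equal signs include very small changes, such as those of CAX7 in pep1-1 and ABCG14 in eop055 apices. For SWEET10 in pep1-1 apices there were 2 counts at 5 weeks and 1 at 3 weeks. The 5 falls with opposite signs were those of ABCG13, AT4G21910, AT2G41190 and AT3G20460, which were positive in eop055 and negative in pep1-1, and of ERD6, at -1.26 in eop055 and 0.01 in pep1-1.

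By class, the falls were spread widely. Amino acid, purine and organic acid carriers had 7 falls and 2 rises among 16, nitrate, ammonium and peptide carriers 5 and 1 among 10 tested, and sugar carriers 4 and 1 among 8. ABC transporters had 4 falls and 2 rises among 7, and phosphate and sulfate carriers 3 of each among 6. Metal carriers had 2 falls among 3, ion carriers 2 falls and 1 rise among 5, MATE carriers 1 of each among 5, and organelle and other carriers 1 fall, PATL2, among 4. Of the 2 members that are not carriers, HB1 fell by 0.93 and SIP4 was not called.

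**Figure D3:**
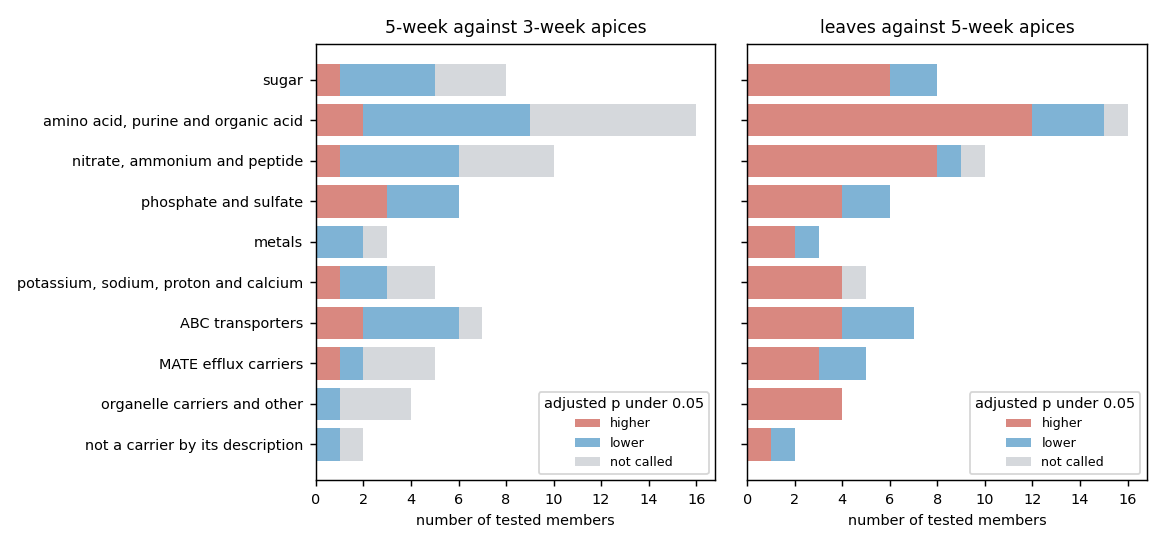
Number of tested members per class that were called higher (red), lower (blue) or not called (grey) at an adjusted p under 0.05, for 5-week against 3-week apices (left) and leaves against 5-week apices (right). Falls outnumber rises in the left panel (30 and 11), and rises outnumber falls in the right one (48 and 15).

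Other large falls lay in members of few counts. The potassium and proton exchanger CHX17 had 1 count over the 6 libraries at 5 weeks and 82 at 3 weeks, a ratio of 79.7 (exact 95% counting interval 13.9 to 3190). The root sulfate importer SULTR1;2 fell by 4.72, the mitochondrial phosphate carrier PHT3;2 by 3.41, the polyol carrier PMT6 by 3.12 and AT3G01350, of the nitrate and peptide family, by 2.88. All 4 had no overlap between ages, and none reached 5 CPM in an apex library. CHX17 and PMT6 were listed higher in eop055 apices at 3 weeks, and AT3G01350 lower in those at 5 weeks. Both choices favour a fall with age, so these falls partly repeat how the members were chosen. Smaller falls were called for KUP9, a potassium carrier, by 0.65, for OPT7, an oligopeptide carrier, by 1.05, and for NPF1.2, which moves nitrate to young leaves, by 0.91. KUP9 averaged 4.87 CPM at 5 weeks and 11.7 CPM at 3 weeks in eop055, a log2 change of -1.26, while pep1-1 had 8.60 CPM at 5 weeks and 8.76 CPM at 3 weeks, a change of -0.04. The difference between the genotypes was not tested. NPF1.2 changed by -1.43 in eop055 and -0.39 in pep1-1, and OPT7 by -0.98 in eop055 and -1.13 in pep1-1. NPF1.2, ERD6 and HB1 were also listed lower in eop055 apices at 5 weeks, so their falls too partly repeat their choice.

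The senescence-related gene SAG21 moved with these falls. It had 1.24, 0.611 and 0.197 CPM in eop055 and 2.42, 3.56 and 3.32 CPM in pep1-1 apices at 5 weeks, against 7.49, 19.5 and 13.3 CPM in eop055 and 10.3, 7.53 and 12.7 CPM in pep1-1 apices at 3 weeks. In leaves SAG21 was at least 109 CPM. The other named senescence gene, NAP, was nearly absent from apices. It had 0 counts in both genotypes at 5 weeks, and 2 counts in eop055 and 0 in pep1-1 at 3 weeks. The summed stress genes WRKY40 and PR1 lay between 0.412 and 1.25 CPM in eop055 and between 1.46 and 4.35 CPM in pep1-1 apices at 5 weeks, against 1.09 to 11.1 CPM in eop055 and 4.42 to 14.2 CPM in pep1-1 apices at 3 weeks. These sums were mostly WRKY40. PR1 had 0 counts in both genotypes at 5 weeks, and 27 in eop055 and 3 in pep1-1 apices at 3 weeks. The part of these genes' responses in the falls was not tested.

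**Figure D4:**
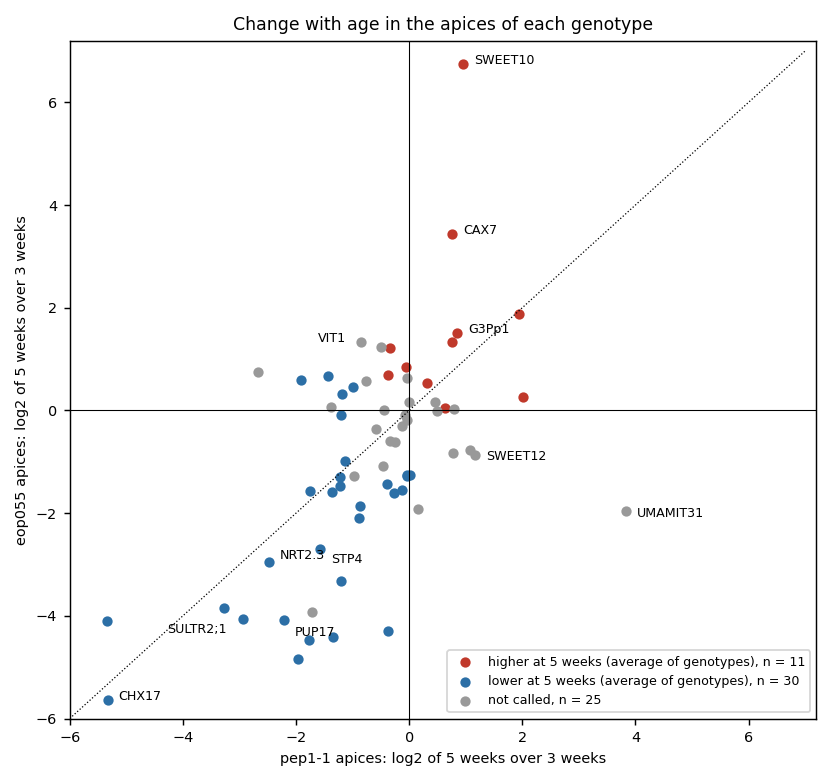
Fitted log2 of the 5-week over the 3-week level of the 66 tested members in eop055 apices (vertical) and pep1-1 apices (horizontal), coloured by the call on the average of the genotypes; the dotted line marks equal change. Of the 30 members called lower, 25 lie below 0 in both genotypes, which a call on the average favours by itself. SWEET10, CAX7, CHX17 and UMAMIT31 rest on groups of few counts.

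The second comparison set leaves against 5-week apices, again averaged over the genotypes. It uses the same 5-week apex libraries as the comparison of ages, so the values of a gene in both are not independent. In leaves 48 of 66 tested members were higher and 15 lower (edgeR, adjusted p under 0.05), and 3 were not called. Among all genes 40.4% were higher and 46.8% lower. The share of members called higher was 72.7%, against 67.9% of the other named genes, and the share called lower 22.7%, against 23.9%. The median log2 difference was 2.76, against 1.81 for other named genes and -0.14 for all genes. All 6 leaf libraries lay above all 6 apex libraries for 40 members, where 32.5% of all genes did so, and below them for 11, where 36.8% did. The authors' list of genes higher in eop055 leaves held 1027 of the 1816 distinct genes in the lists, and members and other named genes alike were drawn from it. These lists were made from the same leaf and apex libraries, so the counts of calls partly repeat which list supplied the members. Of the 27 tested members listed higher in eop055 leaves, 25 had a positive and 2 a negative leaf against apex difference, with a median of 3.39. Of the 19 listed higher in eop055 apices at 5 weeks, 9 were positive and 10 negative, with a median of -0.86. The 8 listed lower there had 5 positive and 3 negative values, with a median of 2.59. The 4 listed lower in eop055 leaves had 2 of each, with a median of 1.0. Of the 12 listed higher in 3-week apices, which are not in this comparison, 11 were positive and 1 negative, with a median of 4.39. Counts in no annotated feature took 7.76 to 8.05% of leaf libraries, against 13.7 to 16.6% of 5-week apex libraries, and their part in the differences was not tested.

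PUP17 was among the largest differences. It had 733, 824 and 407 CPM in eop055 and 267, 316 and 307 CPM in pep1-1 leaves, against the values of at most 1.59 CPM in 5-week apices given above. The tissues did not overlap, and every eop055 leaf library exceeded every pep1-1 one. The log2 difference of PUP17 was 9.27 (SE 0.30, adjusted p = 1.31e-12, edgeR). PUP17, and PUP19 and PATL2 below, were listed higher in eop055 leaves, which are part of the leaf side of this test. Their differences and p-values therefore partly repeat how they were chosen.

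PUP19, of the same purine permease family, had 18.3, 36.6 and 5.36 CPM in eop055 and 1.74, 2.04 and 4.81 CPM in pep1-1 leaves, and 0 counts in all 6 apex libraries at 5 weeks. Its 573 leaf counts put it at least 289-fold higher in leaves, taking 3 counts as the limit over the apex libraries. PUP19 was spread widely among eop055 leaves, where replicate 3 lay near the pep1-1 values. Reads shared between purine permeases of similar sequence could not be checked.

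SULTR2;1 had 180, 140 and 156 CPM in eop055 and 111, 130 and 140 CPM in pep1-1 leaves, where the genotypes met at 140 CPM. Its log2 difference from 5-week apices was 8.21 (SE 0.25, adjusted p = 2.08e-13, edgeR), and 8.87 without pep1-1 replicate 1 of the apices.

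PATL2 had 29.8, 69.0 and 14.0 CPM in eop055 and 10.4, 11.2 and 11.4 CPM in pep1-1 leaves, against 0.0686, 0.0611 and 0 CPM in eop055 and 0, 0.198 and 0.175 CPM in pep1-1 apices at 5 weeks. Leaves and apices were far apart, and the 3 eop055 leaf libraries differed several-fold. PATL2 had a log2 difference of 8.0 (SE 0.64, adjusted p = 3.10e-08, edgeR).

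ABCG40, which imports the hormone abscisic acid, had 142, 172 and 210 CPM in eop055 and 87.9, 112 and 107 CPM in pep1-1 leaves, against 0.480, 0.978 and 0.460 CPM in eop055 and 0.636, 1.19 and 1.14 CPM in pep1-1 apices at 5 weeks. Its log2 difference was 7.40 (SE 0.28, adjusted p = 5.25e-12, edgeR). UMAMIT31 had 23.0, 21.7 and 29.2 CPM in eop055 and 16.8, 25.6 and 28 CPM in pep1-1 leaves, against 0, 0.122 and 0.329 CPM in eop055 and 0.191, 0.198 and 0 CPM in pep1-1 apices at 5 weeks, a log2 difference of 7.30 (SE 0.28, adjusted p = 1.08e-15, edgeR). Leaf genotypes overlapped for UMAMIT31 and did not for ABCG40.

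The members lower in leaves included genes nearly without leaf reads. ABCG13, VIT1, SULTR3;2, AT4G21910 and ABCG5 were listed higher in eop055 apices at 5 weeks, which are part of the apex side. The differences and p-values of these members therefore partly repeat how they were chosen. ABCG13, an ABC transporter of the petal cuticle, had 0 CPM in the 3 eop055 leaf libraries and in pep1-1 leaf replicates 1 and 2, and 0.105 CPM in pep1-1 leaf replicate 3. In apices at 5 weeks ABCG13 had 35.9, 32.6 and 38.6 CPM in eop055 and 17.9, 15.0 and 15.6 CPM in pep1-1. With 1 leaf count and 2255 apex counts ABCG13 was lower in leaves by a ratio of 1490 (exact 95% counting interval 268 to 59000).

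VIT1, the vacuolar iron carrier, had 0 counts in the 6 leaf libraries. In apices at 5 weeks VIT1 had 16.9, 13.4 and 12.2 CPM in eop055 and 4.33, 4.45 and 3.94 CPM in pep1-1, a group difference without overlap. Its 809 apex counts put it at least 178-fold lower in leaves, against a limit of 3 counts over the leaf libraries.

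SULTR3;2 had 0.110, 0.673 and 0.526 CPM in eop055 and 0.102, 0.510 and 0.314 CPM in pep1-1 leaves, against 5.63, 7.28 and 8.21 CPM in eop055 and 3.63, 2.87 and 2.80 CPM in pep1-1 apices at 5 weeks, a log2 difference of -3.66 (SE 0.26, adjusted p = 2.05e-12, edgeR). HB1, the hemoglobin, had 2.63, 2.69 and 2.00 CPM in eop055 and 3.28, 3.88 and 4.81 CPM in pep1-1 leaves, against 24.8, 25.2 and 16.8 CPM in eop055 and 50.8, 51.4 and 55.3 CPM in pep1-1 apices at 5 weeks, a log2 difference of -3.46 (SE 0.13, adjusted p = 1.25e-16, edgeR). In both genes leaves were the lower tissue in each genotype, and their genotypes differed in opposite ways in the apices.

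The MATE carrier AT4G21910 had 1.86, 1.88 and 1.47 CPM in eop055 and 2.35, 1.63 and 1.99 CPM in pep1-1 leaves, against 30.3, 31.5 and 31.4 CPM in eop055 and 13, 13.4 and 13.5 CPM in pep1-1 apices at 5 weeks, a log2 difference of -3.45 (SE 0.13, adjusted p = 4.09e-18, edgeR). ABCG5, an ABC transporter of the cuticle, had 2.19, 2.56 and 1.79 CPM in eop055 and 2.87, 1.02 and 1.47 CPM in pep1-1 leaves, against 23.7, 21.8 and 25.1 CPM in eop055 and 9.92, 10.2 and 11.1 CPM in pep1-1 apices at 5 weeks, a log2 difference of -2.99 (SE 0.15, adjusted p = 2.23e-15, edgeR). Leaf libraries of the genotypes overlapped for both genes, while apex libraries did not. Of the 15 members lower in leaves, 3 were ABC transporters, 3 amino acid or organic acid carriers, 2 MATE carriers, 2 sulfate carriers and 2 sugar carriers; NPF3.1, VIT1 and HB1 made up the rest.

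By class, leaves had higher levels of 12 of 16 amino acid, purine and organic acid carriers, 8 of 10 tested nitrate, ammonium and peptide carriers, 6 of 8 sugar carriers, 4 of 6 phosphate and sulfate carriers and 4 of 5 ion carriers. Leaves were also higher for 4 of 7 ABC transporters, 3 of 5 MATE carriers, 2 of 3 metal carriers and all 4 organelle and other carriers. SWEET12, the sucrose exporter of phloem loading, had 218, 212 and 227 CPM in eop055 and 164, 188 and 200 CPM in pep1-1 leaves, against 16.1, 19.6 and 17.4 CPM in eop055 and 63.3, 42.3 and 52.5 CPM in pep1-1 apices at 5 weeks. Its log2 difference was 2.71 (SE 0.10, adjusted p = 4.09e-14, edgeR). SWEET12 was listed lower in eop055 apices at 5 weeks, so this difference also partly repeats its choice. AT5G46600, of the malate channel family, the nitrate carrier NRT2.3 and AT5G17850, of the cation exchanger family, were the 3 members not called.

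The genotype difference chose the members, so what follows describes it without a test. Among 34220 genes the authors' lists held 3.00% as higher and 0.438% as lower in eop055 leaves, 0.871% as higher and 0.801% as lower in eop055 apices at 5 weeks, and 0.491% as higher in eop055 apices at 3 weeks. Members made up 28 of 1027 and 4 of 150 genes of the leaf lists, 19 of 298 and 8 of 274 of the lists for 5-week apices, and 12 of 168 and 0 of 52 of those for 3-week apices. These shares were 2.73%, 2.67%, 6.38%, 2.92% and 7.14% of each list that held members, in the same order.

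In leaves the members listed as higher in eop055 had a median fitted log2 difference of 1.69. Among those of at least 5 CPM the largest was PUP19, at 2.79, whose libraries were given above. AT2G37900, of the nitrate and peptide family, had 6.90, 11.4 and 10.5 CPM in eop055 and 1.43, 2.75 and 2.3 CPM in pep1-1 leaves, a log2 difference of 2.14. DTX50, a MATE exporter of abscisic acid, had 12.5, 17.9 and 3.89 CPM in eop055 and 1.84, 2.86 and 3.14 CPM in pep1-1 leaves, a log2 difference of 2.11. PUP14, a carrier of cytokinins, had 443, 743 and 174 CPM in eop055 and 80.5, 122 and 116 CPM in pep1-1 leaves, a log2 difference of 2.09. The genotypes did not overlap in these genes, but for PUP19, PUP14 and DTX50 replicate 3 of eop055 stood close to pep1-1.

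This low place of eop055 leaf replicate 3 was seen in many listed members, but not in all. Of the 28 listed members 17 were highest in replicate 2 and 17 lowest in replicate 3, and these were not all the same members. AT2G37900, AT3G56200, ABCB21, OPT7 and PUP10 were highest in replicate 2 but lowest in replicate 1. The share of all genes with either place was not counted. Without replicate 1, 2 or 3 of eop055, an alternative added after the data were seen, the ratio of means dropped under 2 for 2, 4 and 0 members. For PUP19 it was 7.01 with all libraries and 4.13 without replicate 2, and for PATL2 3.41 and 1.99. The stress gene WRKY40 was also highest in replicate 2 and lowest in replicate 3 of eop055. It had 419, 724 and 134 CPM in eop055, against 23.8, 38.2 and 43.7 CPM in pep1-1 leaves. PR1, also a stress gene, had 56.7, 35.4 and 123 CPM in eop055 and 11.6, 24.0 and 25 CPM in pep1-1 leaves, highest in replicate 3. The senescence-related SAG21 shared the order of WRKY40, with 312, 416 and 187 CPM in eop055 and 122, 112 and 109 CPM in pep1-1 leaves. NAP, a transcription factor of leaf senescence, had 2.08, 3.23 and 6.41 CPM in eop055 and 0, 0.408 and 0.523 CPM in pep1-1 leaves, highest in replicate 3. The part of these responses in the members' levels was not tested.

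The authors listed 4 members as lower in eop055 leaves. NRT2.3 had 1.31, 2.02 and 1.16 CPM in eop055 and 11.8, 4.79 and 6.38 CPM in pep1-1 leaves, a log2 difference of -2.38. ABCG14 had 4.93, 4.17 and 6.52 CPM in eop055 and 13.9, 12.6 and 15.6 CPM in pep1-1 leaves, a difference of -1.41. ABCB14 had 12.7, 10.9 and 17.9 CPM in eop055 and 30.7, 27 and 27.6 CPM in pep1-1 leaves, a difference of -1.03. In these 3 genes every eop055 leaf library lay below every pep1-1 one. ACA13, a calcium pump, was the remaining listed member, at 1.31, 1.21 and 1.89 CPM in eop055 and 5.12, 3.98 and 3.77 CPM in pep1-1 leaves. Among members with at least 5 CPM in the higher genotype, NPF1.2 came next, at -0.27 with overlapping libraries and outside this list. Members below that level had larger negative values, among them AT2G33260, an aromatic amino acid permease, at -2.21 on 5 counts in eop055 and 27 in pep1-1 leaves, and HB1 at -0.72.

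In apices at 5 weeks GPT2, which exchanges glucose-6-phosphate for phosphate at the plastid, had 26.8, 30.9 and 16.9 CPM in eop055 and 8.21, 5.74 and 7.52 CPM in pep1-1, a log2 difference of 1.78. VIT1, SWEET10 and G3Pp1, with the values above, differed by 1.74, by a count ratio of 66.6 (165 counts in eop055 and 2 in pep1-1, exact 95% counting interval 18.1 to 555) and by 1.71. COPT1, the copper importer, had 5.35, 6.11 and 3.94 CPM in eop055 and 1.97, 1.48 and 2.27 CPM in pep1-1, a difference of 1.41. All of these genes had their lowest eop055 library above their highest pep1-1 library.

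Among the members listed lower in eop055 apices at 5 weeks, SWEET12 had a log2 difference of -1.58 and HB1 of -1.24, without overlap. UMAMIT21 had 1.92, 2.32 and 1.58 CPM in eop055 and 4.96, 5.15 and 6.39 CPM in pep1-1, a difference of -1.49. AT5G46600 had 1.65, 2.02 and 1.84 CPM in eop055 and 5.72, 4.16 and 5.16 CPM in pep1-1, a difference of -1.46. The genotypes were apart in these genes too. The median difference of the 19 members listed higher at this age was 1.29 and that of the 8 listed lower -1.35. The floral organ genes differed between the same groups, by the sums given at the start, and their part in these differences was not tested.

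In apices at 3 weeks ABCG40 had 2.72, 9.39 and 7.66 CPM in eop055 and 2.54, 1.8 and 2.28 CPM in pep1-1, a log2 difference of 1.57. VTL2, a vacuolar iron transporter-like protein, had 4.56, 8.36 and 5.32 CPM in eop055 and 2.31, 2.49 and 2.90 CPM in pep1-1, a difference of 1.24. G3Pp1 and SULTR2;1 differed by 1.05 and 1.04. Replicate 1 of eop055 was the lowest for ABCG40 and VTL2, and no eop055 library fell within the pep1-1 range in any of the 4 genes. UMAMIT31 had 26 counts in eop055 and 0 in pep1-1, at least 9.01-fold higher. No member was listed as lower at this age. Among members with at least 5 CPM in the higher genotype, the most negative values were -0.89 for AT4G21910, -0.68 for ABCB14, -0.46 for VIT1 and -0.42 for AT2G41190, an amino acid carrier. Below that level ACA13 was at -2.04 on 2 counts in eop055 and 10 in pep1-1, and AT3G20460, a sugar carrier, at -0.56.

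**Figure D5:**
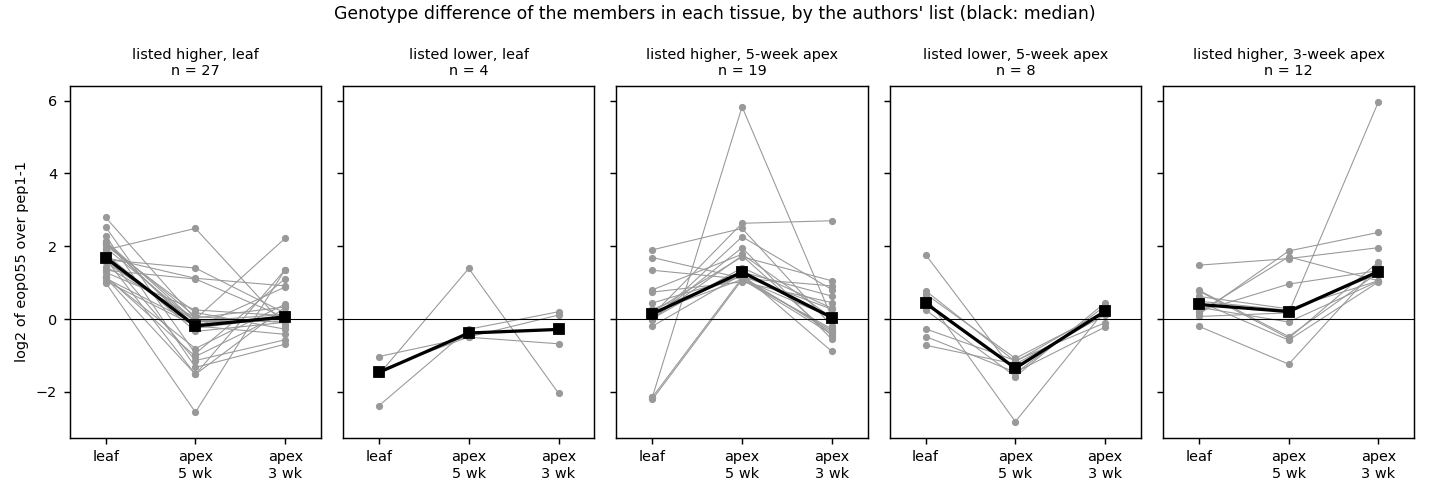
Fitted log2 difference of eop055 over pep1-1 of the tested members in leaves, 5-week and 3-week apices; each panel holds the members of 1 of the authors' lists, grey lines are members and black squares medians. Each list is away from 0 where it was chosen; the medians of the leaf list are -0.19 in 5-week and 0.06 in 3-week apices. Extreme points (SWEET10, UMAMIT31) rest on groups with 0 to 2 counts.

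Choosing members for a large difference in the samples of a list makes smaller ones elsewhere likely by itself, so their values in the other samples are given as a description. The 27 tested members listed higher in leaves had medians of -0.19 in apices at 5 weeks and 0.06 at 3 weeks, with single members between -2.56 and 2.49 at 5 weeks. The 19 listed higher in 5-week apices had medians of 0.14 in leaves and 0.04 in 3-week apices, and the 8 listed lower there had 0.44 and 0.21. The 12 listed higher in 3-week apices had medians of 0.40 in leaves and 0.20 in 5-week apices, with positive values for 11 and 7 members. Of the 4 members in more than one list, G3Pp1 was listed higher in apices at both ages, and AT3G56200, an amino acid carrier, CAX7 and AT5G65380 in leaves and 5-week apices. AT3G56200 had 156, 244 and 165 CPM in eop055 and 53.9, 63.0 and 58.1 CPM in pep1-1 leaves, and 5.97, 5.32 and 3.81 CPM in eop055 and 2.54, 2.38 and 1.92 CPM in pep1-1 apices at 5 weeks.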

How the data were processed

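Directional libraries were prepared from the poly(A) fraction of 1 µg total RNA and read as single 100-base reads, per the labels' protocols. STAR, DESeq, DESeq2 and HTSeq 0.5.4p1 are named in the submitters' processing notes. The sources used here do not give the genome build, annotation or strand setting, so counts of overlapping genes and near-identical copies are uncertain. The authors deposited raw counts per gene for 18 libraries. Their 6 lists of changed genes hold, per the file headers, normalised group means (signal), fold ratios, log2 fold changes and p-values made by the authors; gene names came from these lists. Entries without a gene took 7.76 to 16.6% (no feature) and 2.01 to 3.60% (ambiguous) and were left out.

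Counts were fitted with edgeR 4.0.16 in R 4.3.3: filterByExpr by 6 groups (21275 genes), TMM scaling (0.651 to 0.730 in leaves, 1.15 to 1.27 in apices), robust quasi-likelihood F tests and Benjamini-Hochberg adjustment over all genes. Log2 values are the first-named group over the second. The fit was tested on simulated counts. Groups at 0 counts were set to 3 counts, and groups of 1 to 3 counts given Clopper-Pearson 95% intervals; both cover counting error only. Age and tissue were tested as averages over genotypes. Members, lists and tests were chosen with earlier results of these data known. Named genes are the 6 largest called changes each way with at least 5 CPM on the higher side and no overlap of 6 against 6 libraries, the 4 largest each way per genotype difference, and others as stated. Alternatives were upper quartile or RLE scaling, an unfiltered table, a minimum of 50 counts in 3 libraries, a replicate block, only the groups compared, DESeq2 1.42.0 and leaving out each library. No sequence is printed, since no reference was used. Figures were drawn with matplotlib 3.10.9.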

Additional observations from a re-analysis of the deposited data

Results flagged for a closer look

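In some members the effect had opposite signs in 2 settings, with every library of one side above or below every library of the other. These differences were not tested, because the genotype contrast chose the members. They are log2 values. The share of all tested genes that met this condition was not counted. Most of these members were listed for a genotype difference in a setting compared here, so the separation there repeats their choice.

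The first set concerns age in the 2 genotypes. The change in eop055 minus that in pep1-1 apices was 1.45 for ABCG13 (0.46 and -1.0), 2.20 for VIT1 (1.34 and -0.85) and 1.35 for AT2G33260, an aromatic amino acid permease (0.58 and -0.77). It was 2.52 for AT3G20460, a sugar carrier (0.59 and -1.92), 1.53 for SULTR3;2 (1.21 and -0.33), 2.12 for AT4G21910 (0.68 and -1.44) and 1.06 for AT5G65380 (0.69 and -0.37). It was negative for SWEET12, -2.02 (-0.86 in eop055 and 1.17 in pep1-1). AT3G20460 had only 17 counts in pep1-1 apices at 5 weeks. The genotype difference at 5 weeks minus that at 3 weeks is by construction the same number for each of these genes, and ABCG13, VIT1, AT3G20460, SULTR3;2, AT4G21910 and SWEET12 also had opposite signs without overlap in that view; AT2G33260 and AT5G65380 did not. KUP9 met the condition in that view, at -1.22 (-0.81 at 5 weeks and 0.41 at 3 weeks).

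The genotype difference had opposite signs in leaves and in 5-week apices for a further set. The leaf value minus the apex value was 1.77 for ERD6, a sugar carrier (0.69 and -1.08), 1.06 for ALS3 (0.48 and -0.58), 1.24 for SULTR3;1 (1.04 and -0.19) and 3.56 for ABCB21, an auxin carrier (1.00 and -2.56). It was 1.95 for PUP7 (0.78 and -1.17), 1.95 for KUP9 (1.15 and -0.81), 3.62 for NPF7.2, a nitrate carrier (2.29 and -1.33), 1.83 for SWEET12 (0.25 and -1.58) and 3.26 for UMAMIT21 (1.77 and -1.49). AT2G33260 went the other way, at -3.29 (-2.21 in leaves and 1.08 in apices). The largest of these values rest on groups of few counts. NPF7.2 had 8 counts in eop055 and 17 in pep1-1 apices at 5 weeks, and 15 in pep1-1 leaves. ABCB21 had 4 counts in eop055 and 21 in pep1-1 apices at 5 weeks. In leaves UMAMIT21 had 22 counts in eop055 and 7 in pep1-1, and AT2G33260 had 5 in eop055 and 27 in pep1-1. ALS3 barely separated in 5-week apices, where the highest eop055 library had 2.4 CPM and the lowest pep1-1 library 2.48 CPM. SULTR3;1 also differed between leaves and 3-week apices, by 1.46 (1.04 and -0.42), and its leaf-against-apex difference was 0.38 in eop055 and -0.86 in pep1-1, a gap of 1.24.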

How the results depend on the processing

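All 18 named results stayed called in the same direction under every alternative that was run. The count of members higher at 5 weeks was 11, with 8 to 12 under the alternatives, and that of members lower 30, with 25 to 31. In leaves 48 were higher, with 40 to 49, and 15 lower, with 12 to 17. Lowest counts came from the filter of 50 counts, which left 2, 5, 8 and 3 of these calls untested, except the 8 rises with age found without pep1-1 replicate 1 of the 5-week apices. Of 41 members called for age, 34 stayed called wherever they were tested. ERD6, AT2G41190, AT3G20460, SULTR3;2, CAX7, SWEET10 and AT5G65380 lost the call in at least 1 setting; for ERD6 the adjusted p (edgeR) was 0.0381 and went up to 0.0890 without eop055 replicate 3 of the 3-week apices. For leaves 60 of 63 calls stayed; AT2G37900, SULTR3;1 and SWEET10 did not. Without pep1-1 leaf replicate 3 the fitted value of ABCG13 was -11.25, against -10.16, and with DESeq2 that of VIT1 -8.50, against -9.60; both rest on 0 or 1 leaf counts. The median of all genes in leaves against apices was -0.14 with TMM, -0.04 with RLE, -0.34 with upper quartile scaling and 0.00 with DESeq2.

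Same-numbered replicates did not deviate together (correlations of -0.177 to 0.0626). The labels do not say whether the numbers pair samples, and these correlations cannot decide it. With the number as a replicate block 11 members were higher and 31 lower at 5 weeks, and 48 higher and 15 lower in leaves. Members of few counts, such as CHX17 and PHT3;2, are limited by depth.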
